A study of Rattus norvegicus with 12 samples.

Results

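The enzymes that make heme and the enzymes that take it apart were followed in mucosa scraped from the rat jejunum, a stretch of small intestine that absorbs nutrients. A probe set is a group of short probes on an array that together report 1 transcript, and the members were all probe sets whose only gene symbol in the platform annotation was Alas1, Alad, Urod, Cpox, Fech, Hmox1, Hmox2, Blvra or Blvrb. The rule found 10 probe sets for these 9 genes, of 31142 in all. Of them 7 lay on the Affymetrix 230A array and 3 on the 230B array, and Hmox2 had 1 on each. Heme synthesis was represented by 5 probe sets and heme breakdown by 5.

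A low Fe group was compared with a high Fe group. Each group had 3 samples on each of the array types, which gave 12 arrays. Arrays of both types with the same group and number were taken as the same sample, which the titles do not state. The titles give 12 weeks for all samples, and keywords name iron deficiency and anemia. The labels give no strain, sex, diet composition or treatment beyond the group name, and they leave unsaid whether each sample is an animal of its own. The p-values therefore reflect sample-to-sample spread alone, which may be technical.

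Heme is an iron-containing porphyrin ring. Its synthesis starts in the mitochondrion, where 5-aminolevulinate synthase makes the first precursor, moves to the cytosol, and ends back in the mitochondrion, where ferrochelatase inserts ferrous iron. Heme oxygenase opens the ring and releases the iron, carbon monoxide and biliverdin, and biliverdin reductase turns biliverdin into bilirubin. In the small intestine, heme taken up from food is opened in enterocytes, and its iron joins the same pool as iron absorbed in ionic form.

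Of these enzymes Hmox1 was the one with a transcript difference past the threshold, and it was higher in low Fe mucosa (2.48-fold, 95% confidence interval 1.93 to 3.19). Alas1, which catalyses the first and usually rate-limiting step of synthesis, had a higher signal in each low Fe sample than in any high Fe sample, 1.52-fold on average, and did not pass. The other 8 probe sets had fold differences between 0.823 and 1.33, and none of them passed. So 1 of the 10 probe sets passed an adjusted p of 0.05, Hmox1 on 230A, where 0.0945% of all 9519 tested probe sets passed in either direction and 0.084% passed as higher in low Fe. On 230B 0 of 9165 tested probe sets passed in limma (0%), and 932 had an unadjusted p under 0.05 (10.2%). As lower in low Fe, 0.0105% passed on 230A. Unadjusted p-values under 0.05 belonged to 2 members, Hmox1 and Alas1, and to 6.68% of tested 230A probe sets. Of the 10 log2 differences 6 were above 0, against 46.9% of tested probe sets on 230A and 45% on 230B.

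The quantity behind every value below is a linear signal in array units, which the authors had scaled to a common mean on each array. Differences are low Fe minus high Fe on the scale of log2(signal + 16), tested in limma with Benjamini-Hochberg adjustment over all tested probe sets of an array type. All 10 probe sets were bright enough to be tested, and the means of both groups lay above the filter boundary (106 for 230A, 182.9 for 230B) for all 10. Median log2 differences over all tested probe sets were -0.01 on 230A and -0.04 on 230B, and the members' median was 0.09. Signals of different probe sets cannot be set against each other, so the members are compared only between groups.

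**Figure D1:**
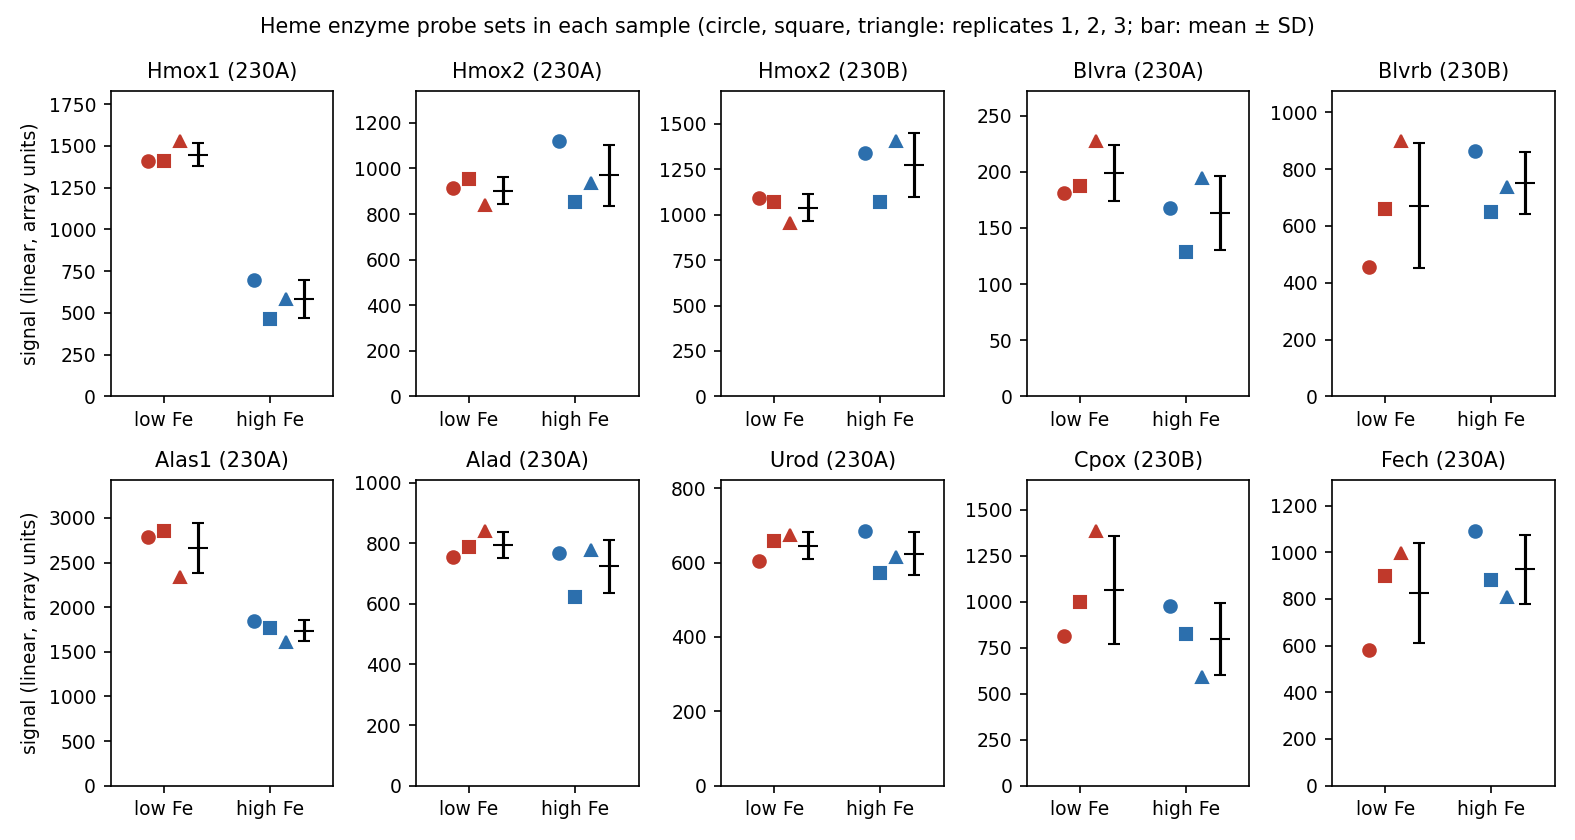
Linear signal (array units, axis from 0) of each of the 10 heme enzyme probe sets in 3 low Fe and 3 high Fe samples, with the mean and SD beside the points. The 3 low Fe samples of Hmox1 sit between 1407.6 and 1526.8 and those of Alas1 between 2336.4 and 2855.9, above all high Fe samples, while the groups overlap in the other 8 panels.

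Heme breakdown begins with heme oxygenase. Hmox1, the inducible form, had signals of 1411.7, 1407.6 and 1526.8 in low Fe replicates 1, 2 and 3, against 696.6, 466.5 and 582.4 in high Fe replicates 1, 2 and 3. The low Fe samples were close together and all lay above the highest high Fe sample, which was replicate 1. The log2 difference was 1.31 ± 0.16 (SE, 3 samples a group), with an adjusted p of 0.0251. By unadjusted p Hmox1 ranked 8 among the 9519 probe sets tested on 230A, and 14 others had a log2 difference as high or higher.

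With 1 array left out, Hmox1 stayed past the threshold when replicate 1 of either group was missing, at an adjusted p of 0.0379 (low Fe) and 0.0210 (high Fe). The call was lost when a low Fe array was missing that was replicate 2 (adjusted p = 0.188) or 3 (0.136), and likewise for high Fe replicate 2 (0.0606) or 3 (0.118), while the log2 difference ran from 1.16 to 1.45.

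Hmox2, the form that most cells make at a steady level, did not pass on either array type. On 230A its signals were 914.1, 954.4 and 841.2 in low Fe samples, against 1118.3, 854.3 and 937.5 in high Fe samples. On 230B they were 1089.5, 1070.8 and 954.5 in low Fe samples, against 1340.3, 1071.7 and 1402.2 in high Fe samples. The groups overlapped on both types, and on both low Fe replicate 3 and high Fe replicate 2 were the lowest of their groups. The log2 differences were -0.09 ± 0.14 on 230A (adjusted p = 0.908) and -0.28 ± 0.17 on 230B (adjusted p = 0.578). In fold terms the 95% confidence intervals ran from 0.750 to 1.17 and from 0.625 to 1.08. The sign on 230A turned to 0.27 when arrays were scaled to the hybridization controls, a setting that moved the median of all 230A probe sets to 0.34, so that Hmox2 still lay below it.

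The biliverdin reductases act after heme oxygenase. Blvra, the main reductase of adult tissue, had signals of 180.8, 187.8 and 227 in low Fe samples, against 167.5, 128.5 and 194.3 in high Fe samples. Of the 3 low Fe samples 2 lay under the highest high Fe sample. Its log2 difference was 0.27 ± 0.19 (adjusted p = 0.814). Blvrb, which also reduces flavins and iron, had signals of 457.1, 659.3 and 897.2 in low Fe samples, against 865, 648.7 and 738.6 in high Fe samples. The low Fe samples of Blvrb spread more widely than the high Fe samples and lay on both sides of them. The log2 difference was -0.20 ± 0.26 (adjusted p = 0.781), and it was 0.04 without low Fe replicate 1.

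**Figure D2:**
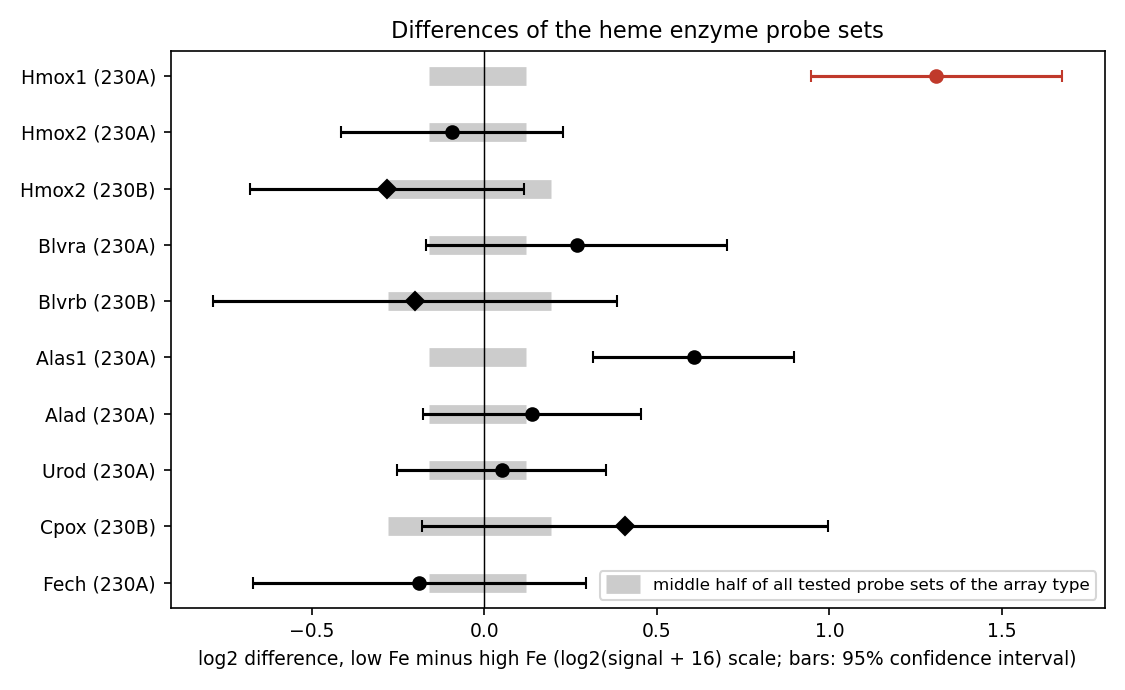
Log2 difference (low Fe minus high Fe, on the log2(signal + 16) scale) of each member with its 95% confidence interval. Circles are 230A and diamonds 230B probe sets, red marks an adjusted p under 0.05, and grey bars span the middle 50% of all tested probe sets of the type. The intervals of Hmox1 (0.95 to 1.67) and Alas1 (0.31 to 0.90) lie above 0, and the other 8 cross it.

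Heme synthesis starts with Alas1, the form of 5-aminolevulinate synthase that most tissues use. It had signals of 2788.4, 2855.9 and 2336.4 in low Fe samples, against 1840.2, 1765.4 and 1606.7 in high Fe samples. The groups did not overlap, as held for 5.61% of tested 230A probe sets in this direction, for 6.18% in the other and for 11.8% in either. On 230B, where the groups of 0 of 3 members were without overlap, the shares were 7.11% higher in low Fe, 10.3% lower and 17.4% in either direction. The log2 difference was 0.61 ± 0.13, with an unadjusted p of 0.00115 and an adjusted p of 0.313. It ranked 35 among the 9519 tested probe sets by unadjusted p. In the 18 alternative settings its log2 difference ran from 0.55 to 0.98 and its adjusted p from 0.206 to 0.999. The 0.98 belongs to the hybridization control setting, where the median over all tested 230A probe sets also rose, to 0.34. In every other setting the log2 difference of Alas1 was 0.70 or lower.

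The middle steps gave small differences. Alad, the cytosolic enzyme that joins aminolevulinate molecules into the first pyrrole, had signals of 755.6, 787.3 and 840.9 in low Fe samples, against 769, 622.5 and 778.7 in high Fe samples. Urod, which removes carboxyl groups from uroporphyrinogen, had signals of 604.3, 658.5 and 673 in low Fe samples, against 685.5, 570.9 and 613.6 in high Fe samples. Both genes overlapped between the groups. Their log2 differences were 0.14 ± 0.14 for Alad (adjusted p = 0.860) and 0.05 ± 0.13 for Urod (adjusted p = 0.951). For Urod the 95% confidence interval ran from 0.840-fold to 1.28-fold.

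Cpox, the enzyme of the mitochondrial intermembrane space that makes protoporphyrinogen, had signals of 811.7, 998.4 and 1386 in low Fe samples, against 979.2, 822.1 and 588.6 in high Fe samples. The groups overlapped, and both were spread widely. Its log2 difference was 0.41 ± 0.26 (adjusted p = 0.581), with a 95% confidence interval from 0.882-fold to 2.00-fold. It was 0.20 without low Fe replicate 3 and 0.21 without high Fe replicate 3.

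Fech, the ferrochelatase of the last step, is itself an iron-sulfur protein. Its signals were 581.9, 898.5 and 995.4 in low Fe samples, against 1092, 880.6 and 806.6 in high Fe samples. Low Fe replicate 1 was far below the other 5 samples, which overlapped. The log2 difference was -0.19 ± 0.21 (adjusted p = 0.873), and 0.04 without low Fe replicate 1. With RNA quality as a block in limma it was -0.36 ± 0.14 (adjusted p = 0.731). Scaled to the hybridization controls, Fech gave 0.18, which lay below the median of all 230A probe sets under that scaling (0.34).

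Of the 9 genes, 7 had an upstream sequence in the RefSeq table of assembly GRCr8, and Hmox1 and Cpox did not. The 250 bases before the start of Alas1, the synthesis enzyme whose groups did not overlap, and of Urod, the member with the smallest difference, are shown 5′ to 3′ on the gene's strand. Capitals mark ACGTG and GCGTG, the core letters to which hypoxia-inducible factors bind, on either strand; where both strands match, the matches overlap.
Alas1: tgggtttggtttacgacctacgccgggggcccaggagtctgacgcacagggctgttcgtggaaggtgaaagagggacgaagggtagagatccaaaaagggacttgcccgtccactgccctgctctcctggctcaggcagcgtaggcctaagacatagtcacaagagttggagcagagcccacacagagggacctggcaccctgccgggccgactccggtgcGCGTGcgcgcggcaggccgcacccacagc
Urod: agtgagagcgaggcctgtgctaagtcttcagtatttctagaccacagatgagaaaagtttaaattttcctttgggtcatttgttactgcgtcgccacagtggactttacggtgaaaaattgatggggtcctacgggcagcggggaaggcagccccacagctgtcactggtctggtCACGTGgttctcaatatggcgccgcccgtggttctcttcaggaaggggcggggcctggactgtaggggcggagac
The Alas1 window is chr8:115768643-115768892 and the Urod window chr5:135705381-135705630, both on the minus strand of GRCr8. ACGTG occurred in 3 of the 7 genes with a window and in 16.6% of all 33469 windows of this length, and GCGTG in 5 of the 7 and in 25.9% of all. Alas1 had GCGTG once, from 29 to 25 bases before the start. Urod had ACGTG on both strands within 1 palindrome, from 75 to 70 bases before the start. TGANNNNGC, core letters of the antioxidant response element, occurred in 3 of the 7 genes and in 34.7% of all windows. It occurred in neither window shown. These counts are by gene and the shares by window, and a gene counted if any of its windows matched. Hmox2 had a further window (chr10:11318801-11319050) without a match to any of these letters. The counts by gene therefore cannot be set directly against the shares. Such matches describe letters only, and no binding was measured.

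The rise of Hmox1 was also set against the other members within each array, which takes out the scaling between arrays. With the high Fe mean of each log2 ratio at 0, Hmox1 over Hmox2 stood at 1.35, 1.28 and 1.58 in low Fe samples, against -0.12 to 0.06 in high Fe samples. Hmox1 over Alas1 stood at 0.59, 0.56 and 0.96 in low Fe samples, against -0.32 to 0.19 in high Fe samples. For all 6 other members on 230A the ratio was higher in each low Fe sample than in any high Fe sample. The difference between the group means of the log2 ratio ran from 0.70 (Alas1) to 1.5 (Fech). With 3 samples a group the exact two-sided permutation test over samples cannot go below p = 0.1, which each of the 6 ratios reached, and 0.1 was also their Benjamini-Hochberg value. Hmox1 is in all 6 ratios and already separated the groups on these same arrays. The ratios are therefore 1 description of Hmox1 and not 6 separate results.

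**Figure D3:**
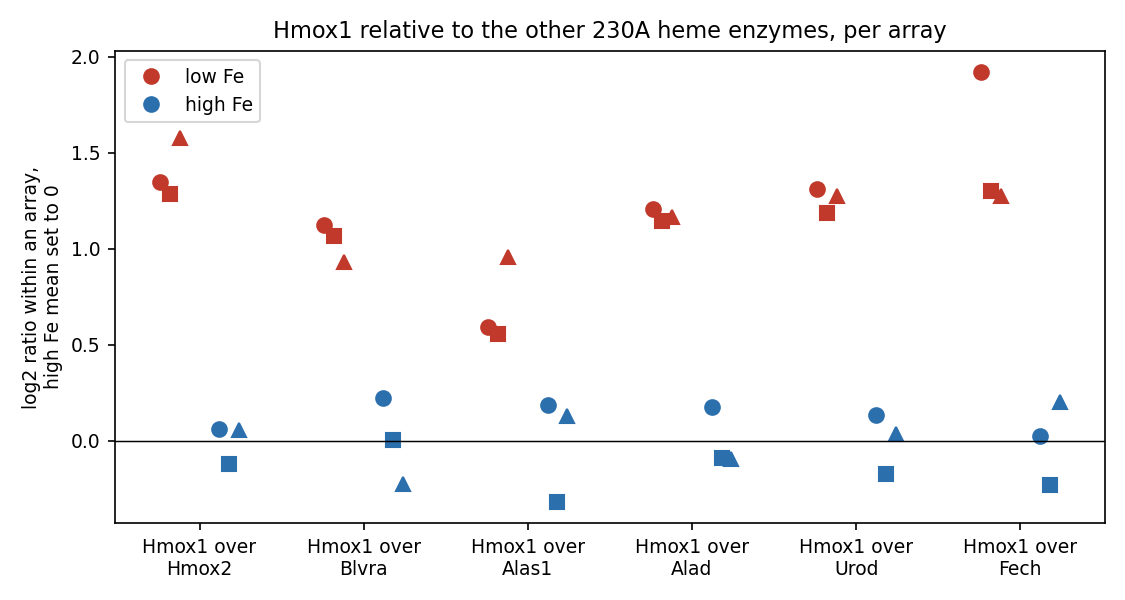
Log2 ratio of the Hmox1 signal to that of each other heme enzyme on the same 230A array, with the high Fe mean of each ratio set to 0. Circles, squares and triangles are replicates 1, 2 and 3, and the low Fe points lie at 0.56 or above, over all high Fe points, which lie at 0.22 or below.

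Within each group many members shared their highest and lowest samples. Low Fe replicate 1 was the lowest low Fe sample for 6 of the 10 probe sets and the highest for 1, and low Fe replicate 3 was the highest for 7. High Fe replicate 2 was the lowest high Fe sample for 7, and high Fe replicate 1 the highest for 7. Hmox2 enters these counts on both array types. The same counts were not made over all tested probe sets, so this order cannot be called a trait of the members. In low Fe samples the SD of log2 values was 0.07 for Hmox1, 0.40 for Fech and 0.47 for Blvrb. In high Fe samples it was 0.28 for Hmox1 and 0.10 for Alas1.

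By the distance between array profiles (root mean square of log2 values, each centred on its own mean, over 6 arrays), the 5 named genes nearest to Hmox1 on 230A were Pmp22 (0.118), Mpzl2 (0.171), Egln3 (0.178), P4ha1 (0.195) and Gprc5a (0.259). Egln3 is a prolyl hydroxylase of hypoxia-inducible factors and P4ha1 a subunit of collagen prolyl hydroxylase. Egln3 had a mean signal of 2138 ± 89.5 in low Fe samples and 1075 ± 171 in high Fe samples. P4ha1 passed (adjusted p = 0.0422) and the other 4 did not, at an adjusted p from 0.0548 (Egln3) to 0.488 (Gprc5a). These genes were picked for their likeness to Hmox1, so their differences are a description. Hmox1 and all 5 had each low Fe sample above each high Fe sample.

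**Figure D4:**
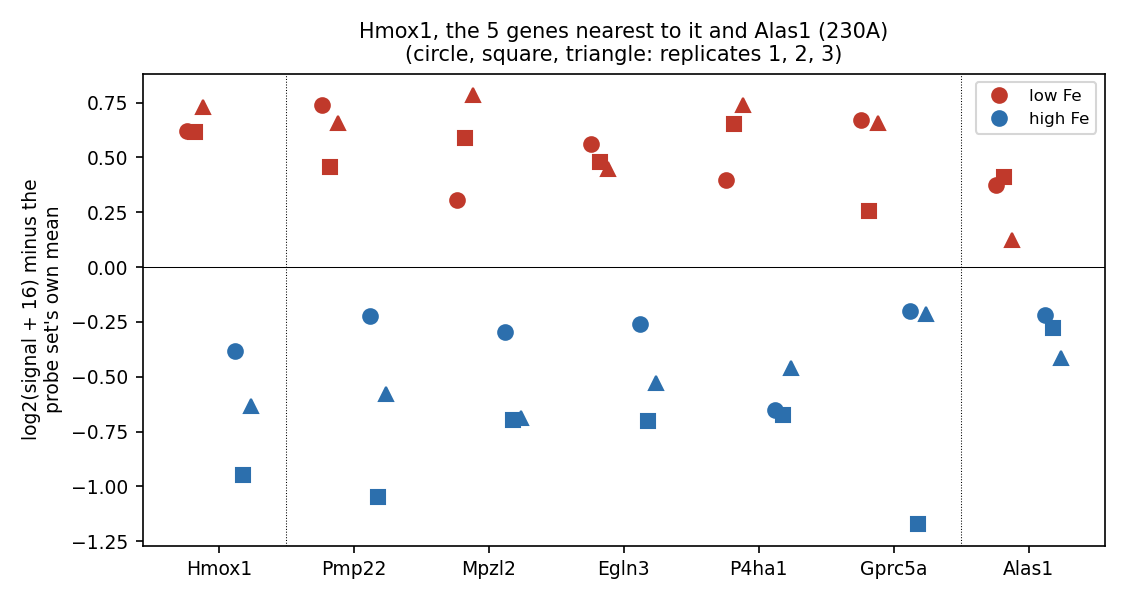
Log2(signal + 16) minus the probe set's own mean over 6 arrays for Hmox1, for the 5 named 230A genes whose values lie nearest to it, and for Alas1. Low Fe samples lie above 0 and high Fe samples below 0 for all 7 genes.

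Other genes of the pathway were taken from lists, with the brightest probe set standing for a gene on each array type. None of the tested genes on them passed. Among other synthesis enzymes, Ppox, which oxidises protoporphyrinogen, averaged 465 ± 50.9 in low Fe and 361 ± 52.4 in high Fe (SD), without overlap, with a log2 difference of 0.36 ± 0.16 (adjusted p = 0.747). Alas2, the red cell form of aminolevulinate synthase, gave -0.21 ± 0.20 (111 ± 22.7 in low Fe and 130 ± 12.4 in high Fe), close to the filter boundary. Uros lay under the filter.

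Of 22 genes of heme and porphyrin transport or binding, 18 were tested and 0 passed, with log2 differences from -0.41 to 0.28 and a median of -0.02. At the low end were Slc46a1, a folate transporter that can carry heme (-0.41 ± 0.20), and Pgrmc1, a heme-binding membrane protein (-0.36 ± 0.16). Lrp1, the receptor for heme bound to hemopexin, gave -0.33 ± 0.20 on 230B (0.03 on 230A), and Abcg2, an exporter that can carry porphyrins, 0.28 ± 0.17. The groups of Slc46a1, Pgrmc1 and Abcg2 overlapped, and those of Lrp1 on 230B did not.

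Of 16 heme sensors and regulators, 15 were tested and 0 passed, with a median of 0.10. Ppargc1a, the coactivator known in mouse liver to raise Alas1, had 3771 ± 387 in low Fe and 2985 ± 707 in high Fe (0.36 ± 0.20 on the log2 scale, adjusted p = 0.548 on 230B). Another probe set of Ppargc1a on that array, picked with its values in view, gave 0.56 without overlap (adjusted p = 0.456), and the one on 230A was under the filter. Bach1, the heme-sensing repressor of Hmox1, gave 463.6, 62.8 and 184.4 in low Fe samples, against 276.2, 287.3 and 229.8 in high Fe samples, so that its low Fe samples lay on both sides of the high Fe samples. Npas2, a heme-binding clock factor, gave 0.38 ± 0.21, Ncoa4, the ferritin receptor of autophagy, 0.35 ± 0.22 and Nr1d2, a nuclear receptor that binds heme, 0.23 ± 0.18.

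NRF2 and BACH1 are the activator and the repressor that act on Hmox1 and on a set of antioxidant genes, of which 9 of 12 listed were tested and 0 passed. Their log2 differences ran from -1.17 to 0.43, with a median of -0.10, so the members lay on both sides of 0. The low end was Gsr, glutathione reductase, whose low Fe samples had signals of 441.3, 207.7 and 8.3, against 146.1, 295 and 543.4 in high Fe samples, and were spread too widely to separate. Gclc, the catalytic subunit of glutamate-cysteine ligase, gave 0.43 ± 0.15, and another of its tested 230A probe sets gave 0.10 with overlap. Srxn1, sulfiredoxin, gave 0.33 ± 0.12 (-0.19 on 230B). Gclm, the other subunit of that ligase, gave -0.52 ± 0.14, with 431 ± 21.3 in low Fe and 629 ± 73.6 in high Fe, and Me1, malic enzyme, gave -0.20 ± 0.11. Nfe2l2, which encodes NRF2, gave -0.004 (adjusted p = 0.997).

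Bilirubin is conjugated and exported after it is formed. On that list 5 of 7 genes were tested and 0 passed. Abcc2, the apical exporter of bilirubin conjugates, had 1362 ± 159 in low Fe and 1035 ± 302 in high Fe (0.43 ± 0.21, adjusted p = 0.761), and its basolateral relative Abcc3 gave -0.28 ± 0.24. The uptake carriers Slco1a4 and Slco2b1 gave -0.11 ± 0.18 and -0.12 ± 0.21.

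In these bulk scrapings fewer cells of a type and less RNA per cell cannot be told apart. Enterocyte markers were well above the filter boundary, and 10 of 11 tested lay below 0, with a median of -0.16 and 0 past the threshold. Treh, a brush border trehalase, gave -0.33 ± 0.16, Alpi, intestinal alkaline phosphatase, -0.23 ± 0.18, Cdh17, an intestinal cadherin, -0.23 ± 0.18 and Si, sucrase-isomaltase, -0.19 ± 0.16. Their summed signals on 230A were 97574 to 125217 in low Fe and 94618 to 155157 in high Fe. Macrophages, which make Hmox1 when they break down red cells, were followed by 15 markers, of which 8 were tested and 0 passed. Of the 8, 5 lay above 0 and 3 below, with a median of 0.11, and both tested on 230B were among those below. Summed signals on 230A were 3307 to 4188 in low Fe and 2189 to 3712 in high Fe, and Cd68, Cd14 and Itgam were under the filter there. Lyz2 alone, with means of 2356 in low Fe and 1814 in high Fe, made up most of these sums. Lyz2 gave 0.43 ± 0.25, C1qc 0.34 ± 0.23, C1qa 0.23 ± 0.21 and Aif1 -0.24 ± 0.16. Smooth muscle markers lay above 0 for 5 of 5 tested genes on 230A and for 2 of 2 on 230B, with a median of 0.43 over both types and 0 past the threshold. Summed signals were 4343 to 5636 in low Fe and 3329 to 4021 in high Fe on 230A, and on 230B, where they overlapped, 627 to 1125 in low Fe and 538 to 1080 in high Fe. Mylk alone, with means of 3711 in low Fe and 2754 in high Fe, made up most of the 230A sums. Smtn had the largest log2 difference (1.11 ± 0.29), and Mylk, Des and Acta2 gave 0.43 ± 0.13, 0.59 ± 0.22 and 0.29 ± 0.19 on 230A. Smtn, Mylk and Des, 3 of the 5 there, were without overlap, as held for 5.61% of tested 230A probe sets in this direction. On 230B Mylk gave 0.09 ± 0.42 and Des 0.41 ± 0.53, both with overlap. The high Fe means of Smtn (79.4) and Des (96.6) lay under the boundary of 106, so both were tested only through their low Fe signals. Smooth muscle genes under the filter, from the fit without it, gave 0.43 (Cnn1), 1.15 (Tagln) and 0.06 (Actg2) on 230A. On 230B they gave 0.54 (Smtn) and -0.71 (Myh11). The part of either cell type in the Hmox1 result was not tested.

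Red cells carry most of the heme of the body. Of 14 red cell markers, 5 were tested and 0 passed, with a median of -0.54, and 4 of the 5 lay below 0. Hbb, a globin whose probe set may also read related globins, averaged 571 ± 52.5 in low Fe and 849 ± 194 in high Fe (-0.54 ± 0.19, adjusted p = 0.680). Gypc gave -0.66 ± 0.18 and Sptb -0.86 ± 0.33 on 230B. Alas2 gave -0.21 ± 0.20, and Slc4a1, the tested marker above 0, gave 0.007 ± 0.19, both with groups that overlapped. Hbb, Gypc and Sptb were lower in each low Fe sample than in any high Fe sample, at an adjusted p of 0.456 or more in limma. Of all tested probe sets, 6.18% on 230A and 10.3% on 230B were without overlap in this direction. The low Fe mean of Gypc (101) lay under the boundary of 106, so Gypc was tested only through its high Fe signals. That of Sptb (185) was close to the boundary of 182.9. Red cell probe sets under the filter, from the fit without it, gave 0.20 (another of Slc4a1), 0.44 (Ahsp), 0.10 (Sptb) and -0.11 (Rhag) on 230A. On 230B they gave -0.22 (another of Sptb), -0.35 (Klf1) and -0.05 (Epb42).

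A sign of RNA quality also differed among samples. The 5′/3′ signal ratio of beta-actin control probe sets on 230A was 0.836, 0.591 and 0.054 in low Fe samples, against 0.620, 0.737 and 0.809 in high Fe samples. By this ratio low Fe replicate 3 stood apart from the other 5. Without it the log2 difference of Hmox1 was 1.27 and that of Alas1 0.70. By the same ratio of GAPDH, low Fe replicate 3 (0.794) did not stand apart on 230A. Low Fe replicate 2 (0.807), low Fe replicate 3 and high Fe replicate 1 (0.811) formed a lower set there, against 0.876 to 0.922. This set did not hold on 230B, where low Fe replicate 3 (0.873) lay next to low Fe replicate 1 (0.877). Within the lower set of 230A the log2 differences, with no test, were 1.06 for Hmox1 and 0.49 for Alas1, and within the other 3 samples 1.41 and 0.72.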

How the data were processed

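The tables deposited by the authors hold 1 linear intensity per probe set and array, from 6 arrays of each type. Their software was not given in the sources used here. Scaling was read off the values: each array stood at a mean of 500.1 (230A) or 500.2 (230B) after 2% of probe sets were left out at each end, so shifts common to most genes are hidden. Samples were grouped by their titles, whose numbers are called replicates. After 57 controls per type were left out, 15866 and 15276 probe sets remained, of which 12783 and 7564 had 1 symbol, 312 and 100 several and 2771 and 7612 none. Of the probe sets with 1 symbol, 12748 and 7524 matched RefSeq of GRCr8 by Entrez identifier. Probe sets with several symbols were tested and are not named.

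No further normalization was applied. Values were taken as log2(signal + 16), which understates changes of dim genes, and the 40% with the lowest mean log2 value were left out (9519 and 9165 tested). Each type was fitted in limma 3.58.1 (R 4.3.3) using lmFit and trended eBayes, and the steps were tested on simulated data. Arrays of a type correlated at 0.962 to 0.979 (230A) and 0.897 to 0.940 (230B), and median signals were 154 to 176 and 259.5 to 303. The number of arrays limits the precision. The text names all members, up to 4 genes per list with the smallest unadjusted p, and the 5 genes nearest to Hmox1. Outside that rule, Bach1, Nfe2l2, Gsr, Slc4a1, further probe sets of named genes and genes given as under the filter were chosen once their values had been seen. Members and lists were chosen with earlier results of these data known. Alternatives were pseudocounts of 1 and 64, no filter, a 60% filter, 3 scalings, eBayes without trend or robust, blocks for replicate number and RNA quality, each array left out and a threshold of 0.1.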

Additional observations from a re-analysis of the deposited data

How the results depend on the processing

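Hmox1 kept its direction in all 18 settings and passed in 12 of them, with log2 differences from 1.16 to 1.67 and adjusted p from 0.0161 to 0.188. The 1.67 came with scaling to the hybridization controls, where the 230A median also rose, to 0.34. In every other setting the log2 difference of Hmox1 was 1.45 or lower. Changes of filter, eBayes option, replicate block or threshold leave the difference as it was, so its direction was fixed there. Leaving out 1 array cannot turn the sign either, because the groups did not overlap. The pass at a threshold of 0.1 is the main fit itself and could not fail. Hmox1 did not pass with no filter (1.31, adjusted p = 0.0737) or with the replicate number as a block (1.31, adjusted p = 0.152), and ran from 1.16 to 1.45 without 1 array. No other member passed in any setting. The replicate block left 4 probe sets past the threshold on 230A. Deviations of same-numbered samples correlated at -0.36 to -0.15 on 230A and -0.27 to -0.10 on 230B, and 0 of 6 samples on either type resembled most its own number, so the numbers gave no sign of pairing. The count of 9 on 230A was 14 with the RNA quality block, 15 at a threshold of 0.1, 32 after scaling to the hybridization controls, and 5 (without low Fe replicate 2) to 21 (without low Fe replicate 1) with 1 array left out. On 230B it was 4 instead of 0 after scaling to the hybridization controls. That scaling moved the median of all probe sets to 0.34 on 230A and 0.14 on 230B. Fech (0.18) and Hmox2 on 230A (0.27) were above 0 under it and still below that median. The RNA quality block turned the sign of Urod (-0.0060). Without 1 array Blvrb ran from -0.43 to 0.044, Fech from -0.34 to 0.041, Hmox2 on 230A from -0.18 to 0.011 and Urod from -0.0087 to 0.12. Cpox ran from 0.20 to 0.58, Blvra from 0.12 (without high Fe replicate 2) to 0.39 and Alad from 0.036 (without high Fe replicate 2) to 0.19. For the counts under the hybridization controls and for the RNA quality block the cause was not tested. Hmox1 has 1 probe set, so a mean over its probe sets could not be tried, and the 60% filter left out Blvra.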

Other observations

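A pair of probe sets carries symbols of pseudogenes close to members, and both lay under the filter, so their values come from the fit without a filter. Hmox2-ps1 on 230A averaged 72.8 ± 20.7 in low Fe and 72.3 ± 12.8 in high Fe. Blvrb-ps1 on 230B had signals of 54.3, 90.2 and 119.8 in low Fe samples, against 275, 229.8 and 109 in high Fe samples, with groups that overlapped and an adjusted p of 0.562 in limma.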
